A study of Mus musculus with 58 samples.

Results

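The 33 genes described here are transcripts of the liver endothelium that were read in 3 isolated populations of mouse liver leukocytes. They are 33 of the 25307 genes of the deposited normalized count table, and all 33 were found in it by their Ensembl identifiers, which were matched to symbols with GENCODE M21. The list was drawn up after the levels of these genes in the same libraries had been seen. Their levels in monocytes against macrophages therefore chose them, and are given as a description without a test. The study isolated Kupffer cells (KC, the resident macrophages of the liver), monocyte-derived macrophages (MoMF) and monocytes (Mo) from livers of 129SV mice and sequenced them as 58 bulk libraries. The control group is labelled Sham6w, and the labels say no more about the sham procedure. Ligation of the common bile duct (CBDL), which blocks bile flow, is labelled CBDL2w for the onset of cholestatic injury and CBDL6w for advanced injury, read here as 2 and 6 weeks. Acute colitis from dextran sulfate sodium (DSS) was studied in mice without ligation (DSS) and on top of advanced cholestatic injury (CBDL+DSS), and no label gives its duration. Each of the 15 groups held 4 libraries, except 3 for the Sham6w MoMF and 3 for the Sham6w monocytes. In 9 libraries the label joins 2 or 3 replicate numbers, and the design text says that some replicates had to be pooled. In Sham6w these are monocytes 1+2+5 and 3+6 and MoMF 1+2+5 and 4+6. The others are DSS MoMF 5+6, CBDL+DSS KC 1+3 and 4+5, and CBDL+DSS MoMF 4+5 and monocytes 4+5. No CBDL2w or CBDL6w library is joined. No label gives the markers or gates used to isolate the cells, or the age and sex of the mice.

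Liver sinusoids are lined by a specialised endothelium with open pores and little basement membrane. Its cells clear waste from portal blood through scavenger and lectin receptors, are kept alive and differentiated by vascular endothelial growth factor (VEGF), and secrete factors that act on hepatocytes and stellate cells. Kupffer cells sit on this lining and circulating monocytes pass through it. Of the 33 genes, 21 are called narrow here because they were listed as not commonly known from monocytes, macrophages or stellate cells (Ptprb, Kdr, Stab2, Clec4g, Bmp2, Oit3, Cdh5, Egfl7, Tek, Tie1, Flt4, Gpr182, Fam167b, Mmrn2, Ehd3, Ramp2, Esam, Cldn5, Emcn, Gpihbp1 and F8). Among them Cdh5 had its highest group means in Kupffer cells, as given below, so the name may not hold for it. The other 12 are called broad because myeloid, stellate or other cells are also known to express them, or because they share sequence with a monocyte gene (Igfbp7, Sparc, Dnase1l3, Fcgr2b, Lyve1, Pecam1, Flt1, Eng, Aqp1, Nrp1, Adam23 and Ly6c1).

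Promoter sequence was taken from RefSeq (GRCm38.p6), whose table matched 21 of the 33 genes with 24 windows of the 250 bases before a transcription start. The 4 windows below are examples from genes that differed strongly between monocyte groups, and they lie outside the gene bodies. Windows of Eng, Aqp1, Flt1 and Adam23 also meet both points, held no match to the motifs below and are not printed. The printed windows are therefore no measure of how common a motif is in the list. Capitals mark CAGGAA, a core sequence bound by ETS factors, or its reverse complement TTCCTG. Tek lies at chr4:94739039-94739288 (plus strand), Clec4g at chr8:3720652-3720901 (minus strand), Fam167b at chr4:129578581-129578830 (minus strand) and Igfbp7 at chr5:77408046-77408295 (minus strand).
Tek: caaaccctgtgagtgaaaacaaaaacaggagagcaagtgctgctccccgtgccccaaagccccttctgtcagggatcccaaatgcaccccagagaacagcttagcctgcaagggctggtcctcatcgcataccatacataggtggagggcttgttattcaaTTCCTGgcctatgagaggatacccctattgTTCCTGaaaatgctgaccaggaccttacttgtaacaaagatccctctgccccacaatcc
Clec4g: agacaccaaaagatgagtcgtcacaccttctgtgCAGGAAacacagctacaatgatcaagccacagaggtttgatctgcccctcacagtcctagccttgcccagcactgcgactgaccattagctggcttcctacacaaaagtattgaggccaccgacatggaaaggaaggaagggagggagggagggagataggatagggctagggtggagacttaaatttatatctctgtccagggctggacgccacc
Fam167b: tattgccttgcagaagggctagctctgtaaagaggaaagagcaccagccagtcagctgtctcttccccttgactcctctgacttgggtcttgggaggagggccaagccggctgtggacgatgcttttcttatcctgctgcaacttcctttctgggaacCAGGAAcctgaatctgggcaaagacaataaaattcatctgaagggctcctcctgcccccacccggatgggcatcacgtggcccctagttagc
Igfbp7: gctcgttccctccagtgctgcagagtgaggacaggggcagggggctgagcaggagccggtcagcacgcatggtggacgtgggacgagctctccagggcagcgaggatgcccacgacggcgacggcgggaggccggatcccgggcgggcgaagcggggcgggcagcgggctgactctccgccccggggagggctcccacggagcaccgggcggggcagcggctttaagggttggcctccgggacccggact
Tek held the motif 89 and 59 bases before the start, Clec4g 216 bases and Fam167b 92 bases before it, and the Igfbp7 window held none. On either strand, CAGGAA was present in 8 of 24 windows of the endothelial genes (33.33%) and in 3865 of 16015 windows of all genes in the table (24.13%). AGATAA was in 0 of the 24 windows and in 7.07% of all windows, and is a core bound by zinc finger factors of the GATA family. TGTTTAC, a forkhead core, was in 0 of the 24 and in 2.65% of all windows. The 3 motifs do not overlap in letters, and a match is a description of the sequence only.

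Every library was counted from tags at the 3′ end of transcripts. Recovered reads per library ranged from 118687 to 521954, and 8885 to 13360 genes were detected. The labelled KC and monocytes matched their markers: the Kupffer cell gene Cd5l ranged from 291 to 808 normalized counts in KC and from 8.84 to 126 in monocytes, and Ccr2 ranged from 231.8 to 568 in monocytes and from 19.7 to 175.7 in KC. MoMF were less distinct, with 20.2 to 230.7 for Cd5l, below KC, and 77.1 to 476 for Ccr2, which overlapped with both. The Kupffer cell genes Clec4f and Vsig4 overlapped between MoMF and KC. The Sham6w monocytes stood apart from the other monocyte groups in other lists as well. Monocyte markers (6 genes) took 0.216% to 0.288% of their reads, against 0.337% to 0.500% in every other monocyte library, and ribosomal protein genes 9.44% to 10.6% against 12.4% to 17.8%. Neutrophil markers (6 genes) took 0.016%, 0.196% and 0.163% of their reads, against group means of 0.022% to 0.046% in the other monocyte groups, so 1 of the 3 libraries lay within those groups. General monocyte and macrophage markers (6 genes) took 0.602% to 0.744% of reads in Sham6w monocytes, against group means of 0.857% to 0.942% elsewhere in monocytes. In the Sham6w MoMF, Kupffer cell markers (8 genes) took 0.062%, 0.252% and 0.276% of reads, against 0.0165% to 0.172% in the libraries of the other MoMF groups. The part these differences have in the results below was not tested.

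Endothelial transcripts were most abundant in monocytes from livers without bile duct ligation. The 33 genes took 0.648%, 1.10% and 0.756% of all reads in the 3 Sham6w monocyte libraries, and 0.496% to 1.02% in the 4 DSS monocyte libraries. In ligated livers they took 0.062% to 0.109% of monocyte reads at 2 weeks, 0.054% to 0.094% at 6 weeks and 0.0997% to 0.139% in CBDL+DSS. The lowest Sham6w or DSS monocyte library thus lay above the highest ligated one. MoMF held 0.422% to 0.458% in DSS, the only MoMF group wholly above Sham6w MoMF (0.094% to 0.140%). CBDL2w MoMF (0.062% to 0.080%) and CBDL6w MoMF (0.047% to 0.059%) lay wholly below Sham6w MoMF, and CBDL+DSS MoMF overlapped with it. KC lay between 0.042% and 0.131% in all 20 libraries. Sham6w KC (0.065% to 0.131%) lay wholly above CBDL6w KC (0.044% to 0.055%), and the other KC groups overlapped with Sham6w. In bulk samples, fewer endothelial cells and less endothelial RNA per cell cannot be told apart, and neither can intact cells from fragments or free RNA. Hepatocyte markers (10 genes) took 0.015% to 0.031% of reads in Sham6w monocytes and 0.009% to 0.028% in the ligated monocytes. Stellate markers (10 genes) took 0.001% to 0.003% and 0.001% to 0.004% in the same libraries.

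**Figure D1:**
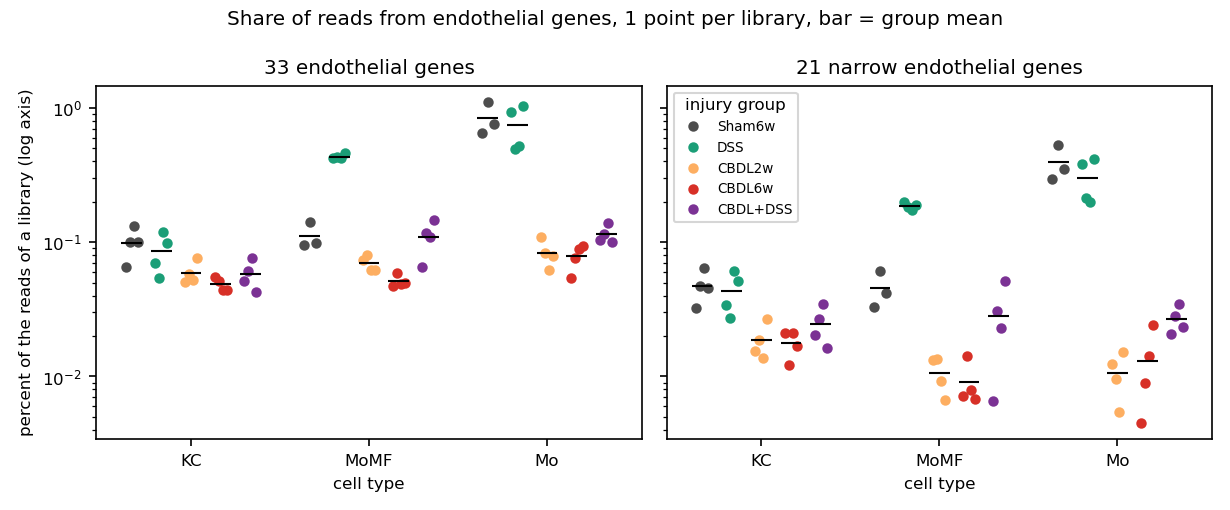
Percent of the reads of each library from the 33 endothelial genes (left) and from the 21 narrow ones (right), on a log axis. Each point is 1 library, grouped by cell type (KC, MoMF, Mo) and coloured by injury group, and bars are group means. Sham6w and DSS monocytes and DSS MoMF lie above all other groups in both panels.

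The 21 narrow genes also separated the groups without ligation from the ligated ones. They took 0.392% of monocyte reads on average in Sham6w and 0.302% in DSS, against 0.011% at 2 weeks of ligation, 0.013% at 6 weeks and 0.027% in CBDL+DSS. In reads, the 3 Sham6w monocyte libraries held 702 to 1310 reads of the narrow genes each. All 33 genes had at least 1 read in every Sham6w monocyte library. In CBDL2w monocytes 14 of 33 had reads in every library and 2 (Esam and Cldn5) had none in any. In CBDL6w monocytes 13 of 33 had reads in every library, and Oit3 and Emcn had none.

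Between cell types, the Sham6w monocytes stood above both macrophage populations in nearly the whole list. Of 33 genes, 30 were higher in all 3 Sham6w monocyte libraries than in all 4 Sham6w KC libraries, against 13.9% of all genes tested. Against Sham6w MoMF it was 32 of 33, with 10.5% of all genes. In DSS, monocytes were above KC in 27 of 33 (9.72% of all genes) and above MoMF in 4 (Bmp2, Fcgr2b, Flt4 and Ly6c1, with 3.9% of all genes; 9 and 10 without DSS monocyte replicate 2 or 3), and MoMF were above KC in 23 of 33 (8.33% of all genes). These counts are descriptions, because the list was chosen on such levels. In ligated livers monocytes were above KC in 2 genes at 2 weeks (Fcgr2b and Ly6c1), in 3 at 6 weeks (Igfbp7, Fcgr2b and Ly6c1; 5 without monocyte CBDL6w replicate 1) and in 10 in CBDL+DSS, against 8.48%, 7.88% and 10.4% of all genes. Stab2, Cdh5 and Nrp1 were lower in all CBDL2w monocytes than in all CBDL2w KC, a share of the list near the 10.6% of all genes. The map of group means shows this as 3 bright columns, the Sham6w and DSS monocytes and the DSS MoMF.

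**Figure D2:**
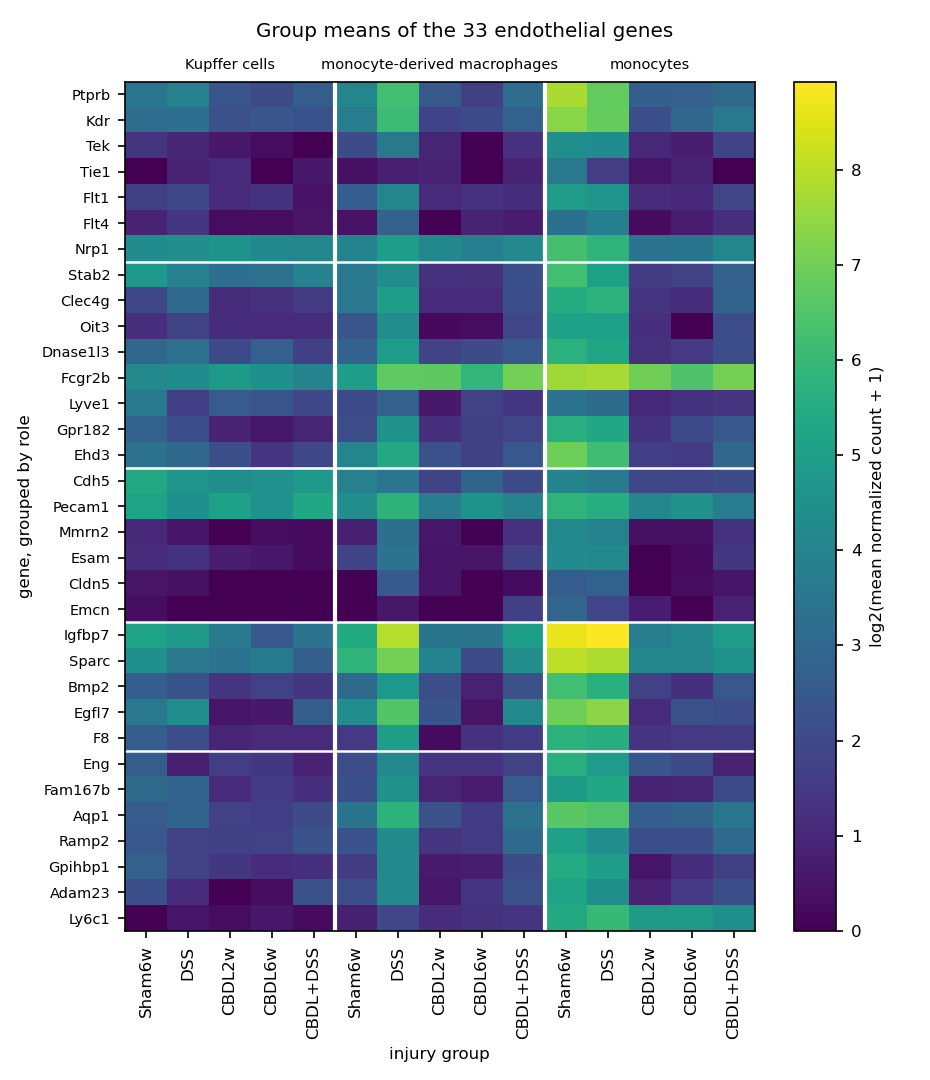
Group means of the 33 endothelial genes (one line per gene, grouped by role with white separators) in the 15 groups, coloured by log2(mean normalized count + 1). The Sham6w and DSS columns of monocytes and the DSS column of monocyte-derived macrophages are brightest, Fcgr2b is bright in most MoMF and monocyte groups, and Ly6c1 is bright in monocytes alone.

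Injury was compared within each cell type by limma on log2(normalized count + 1), over every gene with at least 10 normalized counts in at least 3 libraries, with Benjamini-Hochberg adjustment, and changes are on that log2 scale with their standard error. In monocytes 30 of the 33 genes were tested, and Tie1, Cldn5 and Emcn were too low. Of the 30, 28 were lower and 0 higher in CBDL2w than in Sham6w (5.71% of all 6112 genes were lower and 8.05% higher). In CBDL6w 28 were lower and 0 higher (5.33% and 5.87% of all genes), and in CBDL+DSS 27 were lower and 0 higher (6.07% and 7.0%). Because 22 of the 30 passed the filter only through Sham6w or DSS libraries, where they were high, those counts describe the list and support nothing. The same holds for every count by role below, and for genes admitted in that way the change is given with its standard error as a description, without a p. Among the 8 that passed on ligated libraries alone, 6 were lower in CBDL2w and in CBDL+DSS (Aqp1, Igfbp7, Kdr, Nrp1, Pecam1 and Sparc), and 6 in CBDL6w (Aqp1, Fcgr2b, Igfbp7, Kdr, Nrp1 and Sparc). The median change of the 30 was -4.15 in CBDL2w, -4.01 in CBDL6w and -3.19 in CBDL+DSS, beside -0.10, -0.11 and -0.07 over all genes. With a gene that was at 0 in all libraries of a group set to its bound, the first 2 medians were -4.07 and -3.98. With each monocyte library of the groups compared left out in turn, the counts of lower genes ranged from 26 to 29, from 24 to 29 and from 23 to 25. Nothing states that these libraries come from separate mice, so the p-values measure the spread between libraries, and the 3 comparisons share the Sham6w libraries. The levels in these libraries, Sham6w monocytes among them, had been seen when the list was drawn up. Adjusted p-values of its genes, here and below, are therefore no independent support, also for the 8 that passed on ligated libraries alone.

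**Figure D3:**
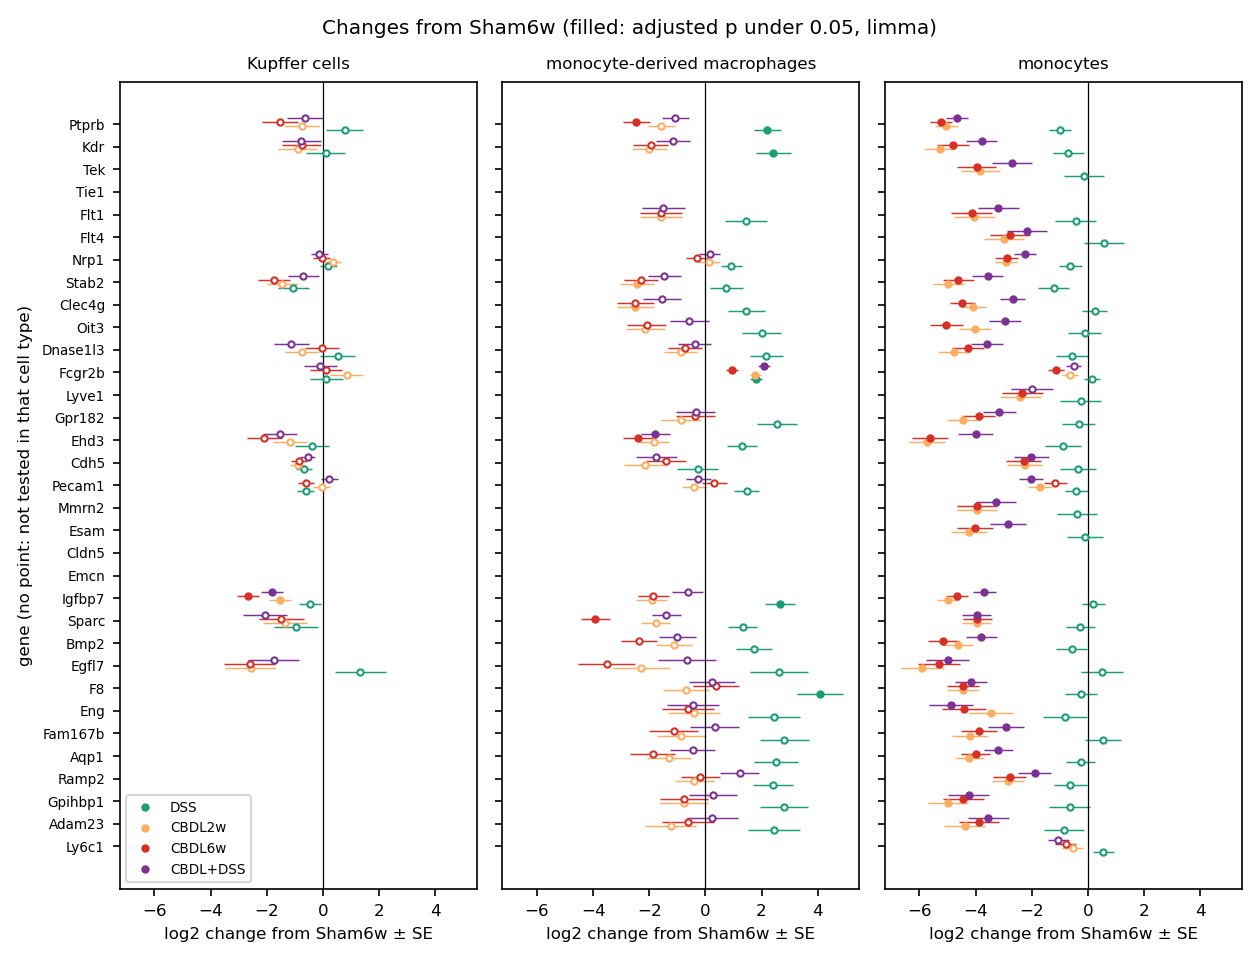
Log2 change of each endothelial gene from Sham6w in the 4 injury groups, with its standard error, in Kupffer cells, monocyte-derived macrophages and monocytes. Filled points passed an adjusted p under 0.05 and genes without points were not tested in that cell type. In monocytes the ligated groups lie far left of 0 and DSS lies near 0, in MoMF the DSS points lie right of 0, and in Kupffer cells Igfbp7 alone is filled.

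Among the receptors of VEGF and of the angiopoietins, all 6 tested genes (Kdr, Flt1, Flt4, Nrp1, Tek and Ptprb) were called lower in each of the 3 ligated monocyte groups, beside 5.71%, 5.33% and 6.07% of all genes. Kdr and Nrp1 passed the filter on ligated libraries alone, and the other 4 did not. Ptprb encodes a phosphatase that restrains the angiopoietin receptor. It had 172, 318 and 175 normalized counts in the Sham6w monocytes, 7.38, 4.51, 5.28 and 5.07 in CBDL2w, 1.92, 4.17, 4.14 and 12.6 in CBDL6w and 8.401, 8.18, 6.17 and 7.23 in CBDL+DSS. No ligated library came near the lowest Sham6w library, and the changes were -5.04 ± 0.39, -5.22 ± 0.39 and -4.66 ± 0.39. Kdr, the main VEGF receptor, had 157, 203 and 126 normalized counts in Sham6w, 4.10, 1.80, 1.76 and 6.34 in CBDL2w, 0.96, 3.13, 6.63 and 16.4 in CBDL6w and 8.401, 10.2, 16.2 and 9.04 in CBDL+DSS. Its groups did not overlap with Sham6w either, with changes of -5.28 ± 0.56 (adjusted p = 3.3e-06), -4.81 ± 0.56 (adjusted p = 7.9e-06) and -3.79 ± 0.56 (adjusted p = 1.5e-04). Nrp1, a coreceptor that immune cells also carry, had 60.3, 96.6 and 77.2 in Sham6w, 13.9, 6.31, 7.93 and 10.1 in CBDL2w, 4.80, 12.5, 9.11 and 13.9 in CBDL6w and 17.9, 11.3, 14.7 and 19.0 in CBDL+DSS. It changed less (-2.93, -2.90 and -2.24), and all its ligated libraries lay below Sham6w. Tek, the angiopoietin receptor, and Flt1 and Flt4, the other VEGF receptors, fell by between 2.16 and 4.14 on the log2 scale across the 3 groups. Tie1, an untested partner of Tek, had 3.94, 22.9 and 5.59 in Sham6w monocytes and at most 1.64 in any ligated one.

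Of 8 tested scavenging and clearance genes of the sinusoid, 7 were lower in CBDL2w, 8 in CBDL6w and 6 in CBDL+DSS, beside the same 5.71%, 5.33% and 6.07% of all genes. Only Fcgr2b among them passed the filter on ligated libraries alone. Stab2, a receptor that takes up hyaluronan and other waste, had 77.4, 64.0 and 77.2 normalized counts in Sham6w monocytes, 1.64, 0.901, 0 and 5.07 in CBDL2w, 0.96, 2.08, 4.97 and 1.26 in CBDL6w and 3.15, 7.16, 8.49 and 3.62 in CBDL+DSS. Sham6w was clear of all ligated libraries, and Stab2 changed by -4.97 ± 0.55, -4.61 ± 0.55 and -3.57 ± 0.55. Ehd3, which acts in endocytic recycling, had 104, 162 and 101 in Sham6w, 3.28, 0, 0 and 5.07 in CBDL2w, 0.96, 0, 4.14 and 2.52 in CBDL6w and 4.20, 7.16, 9.26 and 6.33 in CBDL+DSS. The highest ligated library had 9.26 and the lowest Sham6w library 100.7, with changes of -5.73 ± 0.63, -5.62 ± 0.63 and -3.998 ± 0.63. Dnase1l3, a secreted nuclease that degrades DNA in chromatin, had 48.5, 45.9 and 59.3 in Sham6w, 0, 1.80, 0 and 3.80 in CBDL2w, 2.88, 1.04, 0.828 and 2.52 in CBDL6w and 4.20, 2.05, 4.63 and 2.71 in CBDL+DSS, again without overlap, and changed by -4.76, -4.28 and -3.61. Oit3 had 22.3, 44.7 and 32.4 in Sham6w, 0.82, 0.901, 0 and 3.80 in CBDL2w, 0 in every CBDL6w library and 4.20, 4.09, 2.32 and 2.71 in CBDL+DSS. Against a floor of 3 reads per library it was at least 10.8-fold lower in CBDL6w than in Sham6w. Clec4g, a C-type lectin of sinusoidal endothelium, and Gpr182, a chemokine scavenger, fell by between 2.68 and 4.48 on the log2 scale. Fcgr2b, an inhibitory Fc receptor that myeloid cells share with the endothelium, and Lyve1 are described with the genes that departed from the list.

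Of 5 tested genes of secreted proteins, 5 were called lower in each ligated monocyte group, beside the same 5.71%, 5.33% and 6.07% of all genes. Igfbp7 and Sparc passed the filter on ligated libraries alone, and Bmp2, Egfl7 and F8 did not. Igfbp7, a matrix-bound protein that binds insulin-like growth factors, had 325, 532 and 355 normalized counts in Sham6w, 10.7, 10.8, 6.17 and 24.1 in CBDL2w, 7.68, 10.4, 19.9 and 27.8 in CBDL6w and 25.2, 32.7, 32.4 and 28.9 in CBDL+DSS. Its changes were -4.98 ± 0.40 (adjusted p = 7.1e-08), -4.66 ± 0.40 (adjusted p = 2.5e-07) and -3.69 ± 0.40 (adjusted p = 1.9e-05), with no overlap. Sparc, a collagen-binding matrix protein, had 198, 342 and 249 in Sham6w, 15.6, 18.9, 9.69 and 20.3 in CBDL2w, 20.2, 18.8, 18.2 and 8.84 in CBDL6w and 5.25, 29.7, 47.1 and 7.23 in CBDL+DSS. Its change was nearly equal in the 3 groups (-3.96, -3.94 and -3.96), although the CBDL+DSS libraries spread widely. Egfl7, a vascular matrix factor, had 45.9, 186 and 134 in Sham6w, 0, 1.80, 0 and 2.54 in CBDL2w, 0, 1.04, 0.828 and 12.6 in CBDL6w and 2.10, 1.02, 9.26 and 0.904 in CBDL+DSS. Sham6w libraries of Egfl7 differed among themselves more than those of Ptprb or Stab2, yet all lay above the ligated ones, and the changes were -5.90 ± 0.76, -5.31 ± 0.76 and -4.99 ± 0.76. Bmp2, an endothelial signal that raises hepcidin in hepatocytes, had 52.5, 104 and 66.0 in Sham6w, 3.28, 3.60, 2.64 and 0 in CBDL2w, 0, 3.13, 0.828 and 1.26 in CBDL6w and 6.30, 3.07, 2.32 and 6.33 in CBDL+DSS. F8, coagulation factor VIII, had 40.7, 73.6 and 43.6 in Sham6w, 0.82, 0.901, 0.881 and 3.80 in CBDL2w, 0.96, 0, 2.48 and 3.79 in CBDL6w and 2.10, 1.02, 3.09 and 1.81 in CBDL+DSS. Both lay below Sham6w in all 12 ligated libraries, Bmp2 by -4.63, -5.15 and -3.80 and F8 by -4.45, -4.44 and -4.15.

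Of 4 tested junction and surface genes in monocytes, all 4 were lower in CBDL2w, 3 in CBDL6w and 4 in CBDL+DSS, beside 5.71%, 5.33% and 6.07% of all genes. Pecam1 alone passed the filter on ligated libraries. Pecam1, an adhesion molecule that leukocytes also carry, had 53.8, 67.6 and 41.4 normalized counts in Sham6w, 18.9, 13.5, 22.9 and 10.1 in CBDL2w, 21.1, 24.0, 26.5 and 21.5 in CBDL6w and 9.45, 14.3, 17.0 and 9.94 in CBDL+DSS. It changed by -1.70 ± 0.41 (adjusted p = 0.0071), -1.17 ± 0.41 (adjusted p = 0.074) and -2.02 ± 0.41 (adjusted p = 0.0027), less than the receptors and without passing the test in CBDL6w. Esam, a junction adhesion molecule, had 19.7, 25.4 and 11.2 in Sham6w and 0 in every CBDL2w library, which makes it at least 6.46-fold lower there against a floor of 3 reads per library. Mmrn2, a matrix glycoprotein of vessels, fell by 3.96, 3.96 and 3.29. The tight junction gene Cldn5 and the sialomucin gene Emcn were not tested. In the Sham6w monocytes Cldn5 had 2.62, 6.04 and 6.71 normalized counts and Emcn had 9.18, 4.83 and 5.59.

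Among the remaining genes 6 of 7 tested were called lower in each ligated monocyte group, beside 5.71%, 5.33% and 6.07% of all genes. Only Aqp1 of these 6 passed the filter on ligated libraries alone. Gpihbp1, which holds lipoprotein lipase on capillary walls, had 30.2, 60.4 and 41.4 normalized counts in Sham6w, 0.82, 0.901, 0 and 0 in CBDL2w, 0.96, 2.08, 1.66 and 0 in CBDL6w and 0, 0, 6.17 and 2.71 in CBDL+DSS. Eng, a coreceptor for transforming growth factor beta, had 30.2, 66.4 and 46.99 in Sham6w, 9.84, 3.60, 0.881 and 2.54 in CBDL2w, 0, 0, 0.828 and 11.4 in CBDL6w and 0, 0, 2.32 and 0.904 in CBDL+DSS. Both stayed above all ligated libraries in Sham6w, with changes for Gpihbp1 of -4.99, -4.43 and -4.25 and for Eng of -3.45, -4.42 and -4.88. The water channel gene Aqp1 fell by 4.22, 4.00 and 3.19, and Ramp2, a partner of the adrenomedullin receptor, by 2.85, 2.78 and 1.89. Adam23 and Fam167b fell by between 2.91 and 4.39, and Ly6c1 did not pass the test.

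In monocytes with colitis alone no change of these genes passed limma's test. None of the 30 tested genes was called in DSS against Sham6w by limma (0.54% of all genes were lower and 1.05% higher), and 2 had an unadjusted p under 0.05. DESeq2 on recovered reads called 1 and edgeR 0. The median change was -0.34, beside -0.03 over all genes. Ptprb had 139.8, 91.1, 78.6 and 131 normalized counts in DSS monocytes and Stab2 had 49.0, 22.5, 18.4 and 42.3, in both cases below every Sham6w library, with changes of -0.98 ± 0.39 (adjusted p = 0.18) and -1.22 ± 0.55 (adjusted p = 0.24). Igfbp7 had 563, 262, 369.7 and 746 and Egfl7 had 156, 80.4, 138 and 286, which overlapped with Sham6w (0.19 ± 0.40, adjusted p = 0.86 and 0.50 ± 0.76, adjusted p = 0.78). The 33 genes took 0.935% and 1.02% of reads in DSS replicates 1 and 4 and 0.496% and 0.524% in replicates 2 and 3, and no label marks these pairs as batches.

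No tested endothelial gene differed between CBDL2w and CBDL6w monocytes by limma (0 at an unadjusted p under 0.05, with 0.0% of all genes called), and DESeq2 and edgeR also called 0. Between CBDL+DSS and CBDL6w monocytes 1 gene was higher, Clec4g (0.295% of all genes were higher and 0.278% lower). Its normalized counts were 0.96, 0, 2.48 and 1.26 in CBDL6w and 6.30, 6.14, 8.49 and 3.62 in CBDL+DSS, all higher in the latter, with a change of 1.80 ± 0.41 (adjusted p = 0.042). That call was lost when any of 7 of the 8 libraries was left out. With values seen, CBDL+DSS was also set beside DSS alone: 27 of 33 genes were lower in all CBDL+DSS monocytes than in all DSS monocytes (6.66% of all genes), 25 in MoMF (9.0%) and 5 in KC (6.82%). This comparison was chosen after its values were seen and carries no test.

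In MoMF, endothelial transcripts were higher with colitis. Of 24 genes tested, 5 were higher in DSS than in Sham6w (1.27% of all genes were higher) and 0 lower (0.806%). Of the 10 that passed the filter without the DSS libraries, 3 were higher (Fcgr2b, Igfbp7 and Ptprb). Kdr and F8 were tested only because they are high in DSS, so their changes are a description. Igfbp7 had 19.8, 64.1 and 41.2 normalized counts in Sham6w MoMF and 273, 201, 248 and 253 in DSS MoMF, a change of 2.66 ± 0.55 (adjusted p = 0.017). Ptprb had 9.91, 21.7 and 16.7 in Sham6w and 75.9, 78.7, 72.8 and 69.8 in DSS, a change of 2.20 ± 0.48 (adjusted p = 0.021). Every DSS library was above every Sham6w library for both, and the DSS libraries lay close together. Kdr went from 9.91, 19.6 and 8.84 to 61.8, 61.0, 70.0 and 84.4 (2.42 ± 0.61), and F8 from 0, 5.43 and 0 to 23.8, 35.5, 35.9 and 29.1 (4.09 ± 0.82). These 2 genes did not overlap between the groups. The fitted change was above 0 for 23 of the 24 tested genes, with a median of 2.19 beside 0.06 over all genes, and 21 had an unadjusted p under 0.05 beside 17.8% of all genes. As 14 of the 24 were admitted only through the DSS libraries, these values describe the list. The count moved with single libraries: without the Sham6w library joined from replicates 1, 2 and 5, which had the fewest reads of Kupffer cell genes, 2 genes were called, and without Sham6w replicate 3, 8 were called. Without DSS replicate 2 or without DSS replicate 3, 3 were called.

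In MoMF of ligated livers, 3 of the 24 tested endothelial genes were called in CBDL2w, 4 in CBDL6w and 2 in CBDL+DSS against Sham6w. In the same order, 22, 21 and 17 had a fitted change below 0. The medians were -1.26, -1.49 and -0.52, beside 0.03, 0.02 and 0.08 over all genes. Limma's unadjusted p was under 0.05 for 12, 13 and 7 genes, beside 18.9%, 14.9% and 25.3% of all genes. These values describe the list. Of the 24, 19 passed the filter only through Sham6w or DSS libraries, among them Stab2, Clec4g, Ptprb and Ehd3, whose lower values are therefore given as a description without a p. Of the 5 that passed on ligated libraries alone, Fcgr2b was called in all 3 groups and Sparc in CBDL6w. In CBDL2w, Stab2 and Clec4g were lower and Fcgr2b was higher (1.37% of all genes were lower and 1.69% higher). Stab2 went from 9.91, 13.0 and 9.82 normalized counts in Sham6w to 2.52, 2.24, 0.981 and 0 in CBDL2w (-2.44 ± 0.59), and Clec4g from 14.9, 5.43 and 11.8 to 2.52, 0, 0.981 and 1.0 (-2.5 ± 0.66), in both without overlap. The Sham6w MoMF library 1+2+5 had the fewest reads of all libraries (118687) and held 4 reads of Stab2 and 6 of Clec4g. CBDL2w replicate 1 held 4 reads of each, at a greater depth. In CBDL6w, Sparc, Ptprb and Ehd3 were lower (0.806% of all genes were lower) and Fcgr2b was higher (0.411%). Sparc went from 79.2, 51.1 and 32.4 to 4.29, 4.52, 0 and 3.79 (-3.91 ± 0.53, adjusted p = 3.9e-04). Ptprb reached 0.858, 4.52, 1.60 and 1.90 in CBDL6w (-2.47 ± 0.48). Ehd3 went from 12.4, 18.5 and 15.7 to 3.43, 3.02, 1.60 and 0.948 (-2.41 ± 0.53). For all 3 the groups were separate, although Sham6w library 1+2+5 held only 4 reads of Ptprb and 5 of Ehd3. In CBDL+DSS, Ehd3 with 0.919, 7.09, 3.02 and 7.22 was lower (-1.78 ± 0.53; 5.2% of all genes were lower) and Fcgr2b was higher (4.61%). Against CBDL6w, CBDL+DSS MoMF had more Sparc, with 11.0, 14.2, 27.1 and 28.9 (2.52 ± 0.49, adjusted p = 0.0042), and more Fcgr2b (2.09% of all genes were higher and 2.07% lower). Without CBDL+DSS replicate 1, 6 genes were called there. In CBDL+DSS against Sham6w the calls dropped to 1 without CBDL+DSS replicate 1 or 3 or without any of the 3 Sham6w libraries. In CBDL2w the calls dropped to 1 without replicate 3 or replicate 4, and in CBDL6w to 2 without replicate 3. No tested gene differed between CBDL2w and CBDL6w MoMF by limma (0.0823% of all genes were higher and 0.0% lower; 3 endothelial genes had an unadjusted p under 0.05), and DESeq2 called 2 and edgeR 0.

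In Kupffer cells, where 12 of the 33 genes were tested, Igfbp7 was the only one called. It had 27.7, 29.1, 54.6 and 29.0 normalized counts in Sham6w, 15.7, 7.72, 9.46 and 13.3 in CBDL2w, 2.64, 5.38, 4.80 and 5.33 in CBDL6w, 12.5, 10.8, 11.7 and 3.58 in CBDL+DSS and 19.7, 13.8, 37.5 and 34.7 in DSS. All ligated libraries lay below all Sham6w libraries, and DSS overlapped with Sham6w. It fell in CBDL2w (-1.51 ± 0.39, adjusted p = 0.038; 1.62% of all genes were lower and 1.09% higher), in CBDL6w (-2.68 ± 0.39, adjusted p = 2.2e-04; 2.03% lower and 1.22% higher) and in CBDL+DSS (-1.82 ± 0.39, adjusted p = 0.0084; 1.7% lower and 1.61% higher). The CBDL2w call was lost without any of 7 of the 8 libraries, and 3 genes were called in CBDL6w without CBDL6w replicate 3. In the same order of ligated groups, 10, 11 and 11 of the 12 genes had a fitted change below 0. The medians were -0.9, -1.16 and -0.73, beside -0.03, -0.06 and 0.02 over all genes. Limma's unadjusted p was under 0.05 for 4, 6 and 3 genes, beside 15.1%, 16.7% and 15.6% of all genes. As 5 of the 12 passed the filter only through Sham6w or DSS libraries, these values describe the list. In DSS no endothelial gene was called (3.34% of all genes were higher and 4.55% lower), and 2 had an unadjusted p under 0.05. DESeq2 and edgeR called 0, and limma called 1 without Sham6w replicate 1. Against CBDL6w, 0 were called in CBDL2w (0.0% of all genes in either direction) and 0 in CBDL+DSS (0.942% of all genes were higher and 0.796% lower) by limma, DESeq2 and edgeR, with 1 and 2 endothelial genes at an unadjusted p under 0.05. KC had 21 genes below the filter, and 3 of these had no read in any CBDL6w library (Tie1, Cldn5 and Emcn).

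The changes were also compared between cell types in 1 fit over all 58 libraries. The list was chosen on levels such as those of Sham6w monocytes against macrophages, and most of its genes entered this fit through the groups where they are high, so the counts that follow describe the list and support nothing. Differences are signed, as KC minus the other cell type. A larger change in this paragraph is therefore a higher one, also where it is a smaller fall. Of 30 genes tested, the change in KC was higher than that in monocytes for 13 in CBDL2w (1.46% of all genes), 12 in CBDL6w (1.27%) and 4 in CBDL+DSS (0.609%). In the opposite direction 0 were called (0.212%, 0.304% and 0.212% of all genes). The CBDL+DSS count was 1 without KC CBDL+DSS replicate 2, KC Sham6w replicate 1 or the Sham6w monocyte library of replicates 3 and 6. It was 2 without the KC CBDL+DSS library 4+5, without monocyte CBDL+DSS replicate 1, 2 or 6, or without the Sham6w monocyte library 1+2+5. It was 6 without the monocyte CBDL+DSS library 4+5 and 9 without KC Sham6w replicate 3. Of the 12 genes that passed the filter on the ligated libraries of all cell types, 5 were called in CBDL2w (Igfbp7, Kdr, Nrp1, Ptprb and Stab2), 4 in CBDL6w (Kdr, Nrp1, Ptprb and Stab2) and 3 in CBDL+DSS (Nrp1, Pecam1 and Ptprb). For Ptprb, which fell further in monocytes than in KC, the difference was 4.30 ± 0.73, 3.70 ± 0.73 and 4.02 ± 0.73. In DSS none differed between KC and monocytes (0.0794% of all genes had the larger change in KC and 0.159% in monocytes; 1 endothelial gene had an unadjusted p under 0.05, and DESeq2 and edgeR called 0). Between KC and MoMF, 6 genes differed in DSS, with the larger fitted change in MoMF (0.675% of all genes, and 0.185% in the other direction): F8 (-4.61), Eng (-4.37), Gpihbp1 (-3.74), Gpr182 (-3.25), Igfbp7 (-3.10) and Pecam1 (-2.09). Of these, Igfbp7 and Pecam1 passed the filter without the Sham6w and DSS monocytes and the DSS MoMF, and the other 4 did not. That count was 2 without KC DSS replicate 1 or without the MoMF DSS library joined from replicates 5 and 6, and 3 without KC DSS replicate 2 or without the joined Sham6w MoMF library of replicates 1, 2 and 5. In CBDL+DSS 1 gene differed, Fcgr2b (-2.18 ± 0.60, adjusted p = 0.039; 1.01% of all genes, and 0.979% in the other direction). It was lost when any of 10 of the 15 libraries was left out. In CBDL2w and in CBDL6w none differed between KC and MoMF by limma (0.238% of all genes had the larger change in KC in each, and 0.106% and 0.159% in MoMF), with 2 and 5 endothelial genes at an unadjusted p under 0.05. There edgeR called 0 and 0, and DESeq2 0 and 1.

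Cdh5 was a larger part of the reads of the narrow genes in Kupffer cells than in monocytes. Cdh5 (VE-cadherin, the main adhesion molecule of endothelial junctions) made up 1.29% ± 0.132 (SD, n = 3) of the reads of the 21 narrow genes in Sham6w monocytes, 1.39% ± 0.47 (n = 4) in DSS monocytes and 1.95% ± 0.669 (n = 4) in DSS MoMF. In KC it made up 30.2% ± 13.7 (n = 4) in Sham6w and 20.1% ± 2.33 (n = 4) in DSS, and every KC library of these groups was above every one of those monocyte and DSS MoMF libraries. Sham6w MoMF lay between, at 9.76% ± 2.58 (n = 3), and overlapped with Sham6w KC. Stab2 was also a larger part in Sham6w KC (17.5% ± 6.14) than in Sham6w monocytes (6.76% ± 2.37), without overlap. Ptprb was a smaller part in Sham6w KC (6.16% ± 4.28) than in Sham6w monocytes (18.8% ± 1.201), and so was Kdr (4.89% ± 2.75 against 14.2% ± 2.47), both without overlap. In DSS the share of Ptprb overlapped between KC (11.6% ± 1.41) and monocytes (12.9% ± 1.82), as did that of Kdr (6.09% ± 2.90 and 11.9% ± 2.502) and that of Stab2 (10.2% ± 4.76 and 3.67% ± 0.578). These shares rest on 93 to 248 reads per Sham6w KC library, and they are shares of tags, not of transcripts per length. They are descriptions, because the list was chosen on levels in these cells. Whether the Cdh5 reads in KC came from endothelium was not tested. A large part from Cdh5 also lowers the parts of the other narrow genes in KC.

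**Figure D4:**
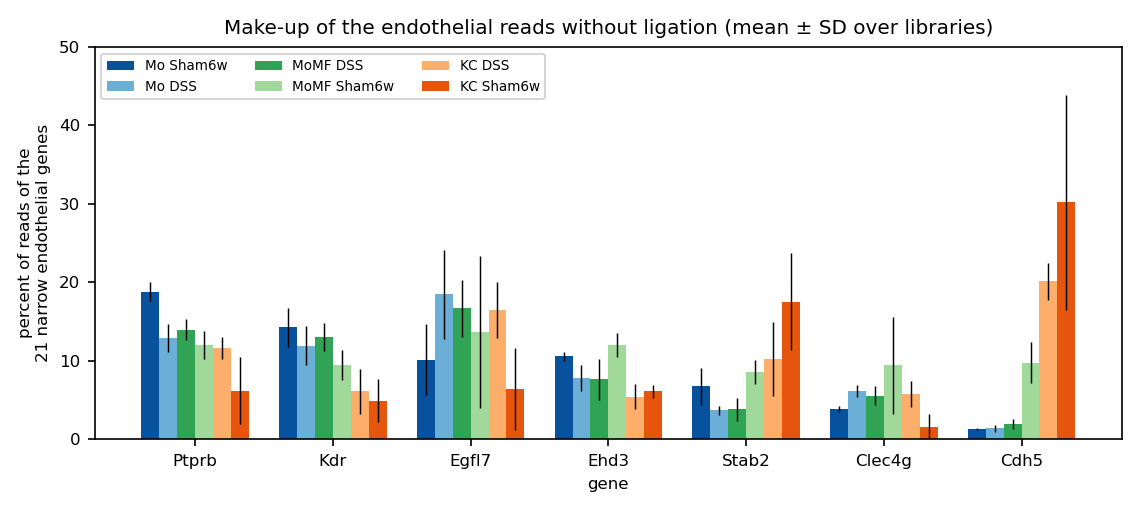
Percent of the reads of the 21 narrow endothelial genes that came from each of 7 genes in the groups without ligation, as the mean over libraries with SD (n = 3 in Mo Sham6w and MoMF Sham6w, n = 4 elsewhere). Cdh5 is the tallest bar in Kupffer cells and the shortest group in monocytes, and Ptprb and Kdr are higher in Sham6w monocytes than in Sham6w Kupffer cells.

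Several genes departed from the common pattern. Over the 58 libraries, the log2 level of each of the 30 genes of the joint fit was correlated with the mean standardised level of the other narrow genes. Pearson's r was highest for Igfbp7 (0.961), Kdr (0.939), Ptprb (0.936) and Ehd3 (0.936) and lowest for Cdh5 (0.227), Fcgr2b (0.399), Ly6c1 (0.437), Lyve1 (0.571) and Pecam1 (0.573). The 58 libraries share cell types and injury groups, so these values describe the pattern only.

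**Figure D5:**
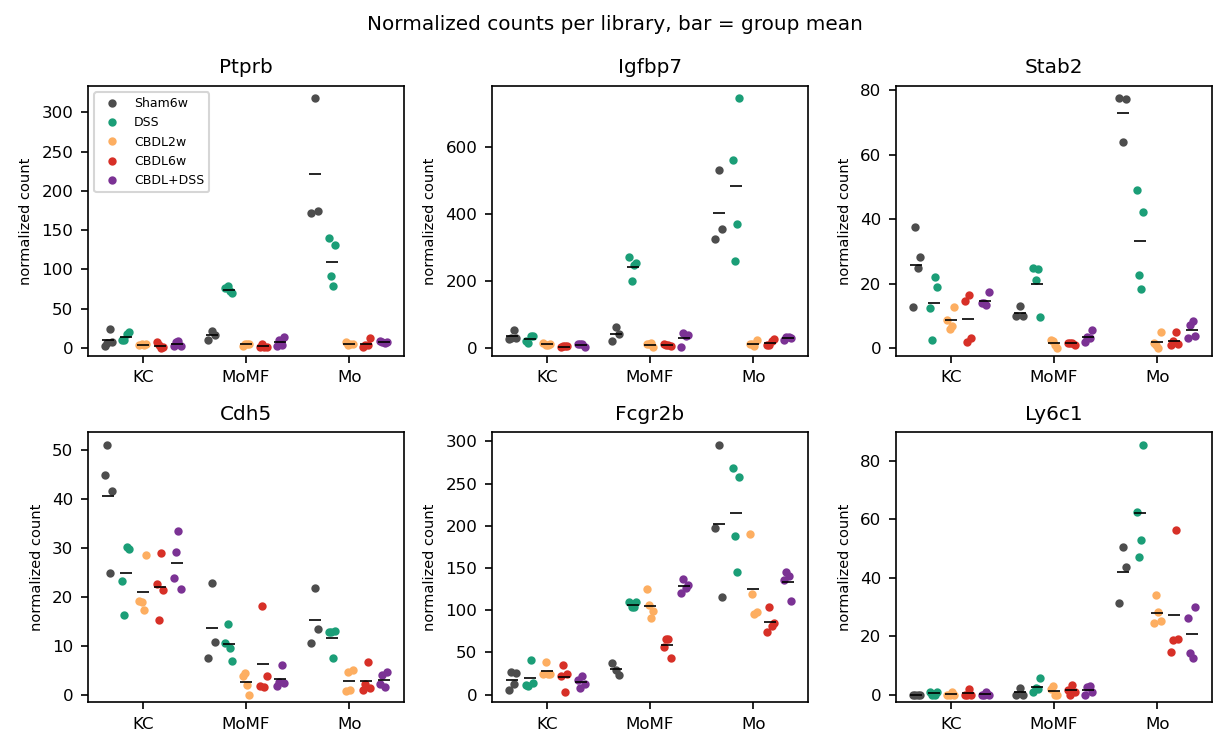
Normalized counts per library (points, coloured by injury group) with group means (bars) of 6 endothelial genes in KC, MoMF and Mo, on linear axes. Ptprb, Igfbp7 and Stab2 are high in Sham6w and DSS monocytes, Cdh5 is highest in Kupffer cells, Fcgr2b stays high in ligated monocytes and MoMF, and Ly6c1 is limited to monocytes.

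By group mean, Cdh5 was highest in Kupffer cells in every injury group, and all KC libraries were above all MoMF and monocyte libraries of their group except in CBDL6w. It had 44.7, 50.9, 24.8 and 41.5 normalized counts in Sham6w KC, 7.43, 22.8 and 10.8 in Sham6w MoMF and 10.5, 21.7 and 13.4 in Sham6w monocytes. Across the ligated KC libraries it stayed between 15.2 and 33.4, while ligated monocytes had 0.82 to 6.63. It did not pass the test in KC in any comparison (changes of -0.90, -0.84, -0.54 and, in DSS, -0.67). In monocytes it fell by 2.25, 2.28 and 2.01 on the log2 scale in CBDL2w, CBDL6w and CBDL+DSS.

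Fcgr2b was higher in MoMF of ligated livers, where the median fitted change of the list was below 0, and also in DSS, where that median was above 0. It had 37.1, 29.3 and 23.6 normalized counts in Sham6w, 125, 106, 90.2 and 98.5 in CBDL2w, 56.7, 66.3, 66.3 and 43.6 in CBDL6w, 109, 103, 104 and 109.6 in DSS and 120.4, 136, 127 and 129.9 in CBDL+DSS. All 16 libraries of the injured groups lay above all 3 Sham6w libraries. It rose by 1.78 ± 0.21 (adjusted p = 2.6e-05), 0.94 ± 0.21 (adjusted p = 0.025), 1.82 ± 0.21 (adjusted p = 9.5e-05) and 2.08 ± 0.21 (adjusted p = 1.3e-06), and CBDL+DSS exceeded CBDL6w by 1.15 ± 0.20 (adjusted p = 0.0014). In monocytes it had 197, 296 and 115 in Sham6w, 269, 188, 145 and 258 in DSS, 190.2, 119, 95.1 and 97.6 in CBDL2w, 73.9, 104, 81.2 and 84.6 in CBDL6w and 135, 145, 140.5 and 110.2 in CBDL+DSS. It was lower in CBDL6w (-1.14 ± 0.28, adjusted p = 0.0093) and overlapped with Sham6w in the other ligated groups. KC had 2.88 to 41.2 over all 20 libraries.

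Ly6c1, a surface antigen of endothelium and lymphoid cells, had at most 1.92 normalized counts in KC and 5.82 in MoMF. It had 31.5, 50.7 and 43.6 normalized counts in Sham6w monocytes and 62.6, 47.2, 52.8 and 85.5 in DSS, against 24.6, 34.2, 28.2 and 25.4 in CBDL2w, 14.4, 18.8, 56.3 and 18.9 in CBDL6w and 26.3, 14.3, 12.3 and 29.8 in CBDL+DSS. No comparison passed the test. Its sequence is nearly identical to that of the monocyte gene Ly6c2, which ranged from 75.6 to 363 in these libraries, so reads may be split between the pair and its values are uncertain. Lyve1, the hyaluronan receptor of lymphatic and sinusoidal endothelium, had 5.32, 26.7, 11.9 and 0.83 in Sham6w KC and 5.25, 13.3 and 10.1 in Sham6w monocytes. It overlapped between those cell types, and in monocytes its change was called in CBDL2w (-2.41 ± 0.73) and CBDL6w (-2.33 ± 0.73). Pecam1 had 17.0, 35.2, 44.7 and 44.8 in Sham6w KC and 7.43, 20.6 and 32.4 in Sham6w MoMF, and the groups overlapped. Nrp1 had 9.58, 14.6, 26.8 and 24.1 in Sham6w KC and 17.3, 16.3 and 12.8 in Sham6w MoMF, which also overlapped. Neither gene was called in KC or MoMF, where both had reads in every library.

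Of 33 further genes, 32 were in the table and 13 were tested in monocytes. Of these, 12 were lower in CBDL2w, 11 in CBDL6w and 10 in CBDL+DSS, beside 5.71%, 5.33% and 6.07% of all genes. In DSS 0 were called by limma (0.54% of all genes were lower and 1.05% higher), with 1 at an unadjusted p under 0.05. The list was written with earlier results of these data known, so it is no independent support, and genes that are low in ligated monocytes can again pass the filter only through Sham6w or DSS. Adgrf5, an adhesion receptor of capillary endothelium, had 91.5 ± 14.1 normalized counts (SD, n = 3) in Sham6w monocytes and 1.07 ± 1.302 (SD, n = 4) in CBDL2w (-5.70 ± 0.69). Robo4, a guidance receptor of vessels, changed by -4.27 ± 0.87 and Tspan7 by -4.19 ± 0.52. In MoMF, Tspan7 was called higher in DSS (3.80 ± 0.93). Cd93 and Stab1, which macrophages and monocytes also express, rose in CBDL+DSS MoMF (2.47 ± 0.29, adjusted p = 1.3e-05 and 2.37 ± 0.56, adjusted p = 0.0089), and Cd93 rose in CBDL2w and CBDL6w KC (2.75 ± 0.44, adjusted p = 5.2e-04 and 2.41 ± 0.44, adjusted p = 0.0022).

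The genes most like the list over the 58 libraries were found by Pearson correlation with the mean standardised log2 level of the 18 narrow genes of the joint fit. The 10 highest among genes not in the list were Tinagl1 (0.921), Clec14a (0.915), Sema6a (0.911), Timp3 (0.911), Cavin2 (0.904), Cyp4b1 (0.901), Pakap (0.896), Tspan7 (0.896), Col13a1 (0.893) and Ackr1 (0.89). Clec14a and Tspan7 are also among the 32 further endothelial genes. Tinagl1 had 97.5 ± 33.0 normalized counts (SD, n = 3) in Sham6w monocytes, 162 ± 38.3 (n = 4) in DSS monocytes and 1.67 ± 1.96 (n = 4) in CBDL6w monocytes. The 3 lowest were Itgb5 (-0.655), Ndst1 (-0.63) and Cysltr1 (-0.615).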

How the data were processed

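RNA of 58 libraries was read as 3′ tags with molecular identifiers (QuantSeq 3′ mRNA FWD, per the labels' protocols). The authors deposited a table of normalized counts per gene, a depth-scaled signal obtained by dividing the counts of each library by 1 DESeq2 size factor. STAR 2.7.5b, RSEM 1.3.1, Trimmomatic 0.39, UMI-tools 1.0.1, DESeq2 and the build GRCm38.p6 are listed in the submitters' processing notes. Every value was a whole multiple of 1 read within 0.01, so reads were recovered, and shares of reads use them. Recovered size factors ranged from 0.404 to 1.675.

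Groups came from the labels. In each cell type limma 3.58.1 (R 4.3.3, trend and robust) was fitted to log2(normalized count + 1) over the 5 groups, for genes with at least 10 normalized counts in at least 3 libraries: 6159 genes in KC, 6079 in MoMF and 6112 in monocytes. A joint fit of 7555 genes in 58 libraries gave differences between cell types. Benjamini-Hochberg adjusted p under 0.05 was called. The fits were tested on simulated data. Alternatives were DESeq2 1.42.0 and edgeR 4.0.16 run on the recovered reads, scaling to equal totals, no filter, a pseudocount of 5, a replicate block and leaving out each library.

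Values in every library are given for genes called in an injury comparison, at most 8 per comparison by size, and for the 8 genes with the highest mean. Further endothelial genes are given as counts with at most 3 examples, and similar genes as the 10 highest and 3 lowest correlations. The genes and lists were chosen with earlier results of these data known. Libraries with the same number in different injury groups did not deviate together: of 28, 23 and 21 such pairs within KC, MoMF and monocytes, none had a correlation over 0.1. Across cell types within an injury group, same-number pairs had median correlations of 0.028 (KC and monocytes), 0.039 (KC and MoMF) and 0.044 (MoMF and monocytes). For different numbers these medians were -0.016, -0.007 and -0.011. The joint fit treated all libraries as independent.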

Additional observations from a re-analysis of the deposited data

Results flagged for a closer look

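Of 130 groups of 4 libraries examined for a library far from the others, 15 held one. The cutoff flags about 1 in 20 by chance only if values are normally distributed, which sparse counts are not. A group with reads in 1 library alone is always flagged, as for Egfl7 in KC CBDL6w and in MoMF CBDL6w. The 15 are therefore no measure of an excess over chance. Egfl7 had such a library in 5 groups: the KC CBDL+DSS library 4+5 had 20.2 normalized counts against at most 0.597 in the others, KC CBDL6w replicate 4 had 2.13 against 0, MoMF CBDL6w replicate 2 had 1.51 against 0, the monocyte CBDL+DSS library 4+5 had 9.26 against at most 2.10, and monocyte CBDL6w replicate 4 had 12.6 against at most 1.04. Fcgr2b was high in KC CBDL2w replicate 2 (38.6) and in KC DSS replicate 3 (41.2), and Pecam1 in KC DSS replicate 4 (24.8). KC Sham6w replicate 3 was high for Igfbp7 (54.6) and Sparc (37.7). Sparc was low in MoMF CBDL6w replicate 3 (0) and in MoMF DSS replicate 1 (80.3), and Ptprb was low in MoMF CBDL2w replicate 1 (3.15). The narrow genes took 0.0142% of reads in MoMF CBDL6w replicate 2, and the 33 genes took 0.458% in the MoMF DSS library 5+6, each above the rest of its group.

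The change from Sham6w was called different between cell types (KC minus the other) for the genes below. Most of them entered that fit only through groups where they are high and were chosen on such levels, so the values are a description. Between KC and monocytes it differed for 13 genes in CBDL2w (Ehd3 by 4.56, Kdr by 4.38 and Ptprb by 4.30 on the log2 scale), 12 in CBDL6w (Oit3 by 4.85, Bmp2 by 4.29 and Dnase1l3 by 4.25) and 4 in CBDL+DSS (Ptprb by 4.02, Oit3 by 2.73 and Pecam1 by 2.26). Between KC and MoMF it differed for 6 genes in DSS (F8 by -4.61, Eng by -4.37 and Gpihbp1 by -3.74) and for 1 in CBDL+DSS (Fcgr2b by -2.18). Oit3 was at 0 in all CBDL6w monocyte libraries, so its fitted value there is no measure of size.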

How the results depend on the processing

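The counts below are of endothelial genes called. A pseudocount of 5 gave 23, 24 and 23 for KC minus monocytes in CBDL2w, CBDL6w and CBDL+DSS, 13 for KC minus MoMF in DSS, 14 for MoMF DSS, 7 for MoMF CBDL2w, 2 for KC CBDL6w and 0 for monocyte CBDL+DSS against CBDL6w. DESeq2 gave 9 in each of MoMF CBDL2w, CBDL6w and DSS, 5 for MoMF CBDL+DSS against CBDL6w, 2 for MoMF CBDL2w against CBDL6w, 3 and 2 for KC CBDL2w and CBDL6w, 1 for monocyte DSS, 0 for monocyte CBDL+DSS against CBDL6w, and 3 and 1 for KC minus MoMF in DSS and CBDL6w. With edgeR there were 8, 8 and 5 for MoMF CBDL2w, CBDL6w and CBDL+DSS against CBDL6w, 8 and 7 for KC minus monocytes in CBDL2w and CBDL6w, 2 for KC minus MoMF in DSS and 0 for monocyte CBDL+DSS against CBDL6w. No filter gave 8 for MoMF DSS, 1 for MoMF CBDL+DSS, 0 and 2 for KC CBDL2w and CBDL6w, 0 for monocyte CBDL+DSS against CBDL6w, and 3 and 0 for KC minus MoMF in DSS and CBDL+DSS, and equal totals gave 0 for the last. The replicate block could use only libraries with a single number. With the block, and with the same libraries without it, the monocyte counts were 12 and 18 in CBDL2w, 7 and 15 in CBDL6w, 0 and 6 in CBDL+DSS, and 0 and 0 for CBDL+DSS against CBDL6w. Both gave 1 in MoMF CBDL2w, CBDL6w, DSS and CBDL+DSS, 1 and 3 for KC minus monocytes in CBDL2w and in CBDL6w, 0 in CBDL+DSS, and 0 for KC minus MoMF in DSS and CBDL+DSS, and the block alone gave 0 for KC CBDL+DSS. Fewer libraries entered these fits, with replicate 4 as the only Sham6w monocyte library and replicate 3 as the only Sham6w MoMF library. In the counts that follow, libraries were left out only from the groups compared. Leaving out each library gave 26 to 29, 24 to 29 and 23 to 25 in monocyte CBDL2w, CBDL6w and CBDL+DSS, 0 to 1 for CBDL+DSS against CBDL6w, 1 to 3, 2 to 5, 2 to 8 and 1 to 2 in MoMF CBDL2w, CBDL6w, DSS and CBDL+DSS, 2 to 6 for MoMF CBDL+DSS against CBDL6w, and 0 to 1, 1 to 3 and 0 to 1 in KC CBDL2w, CBDL6w and DSS. It gave 11 to 14, 10 to 15 and 1 to 9 for KC minus monocytes, and 2 to 8 and 0 to 1 for KC minus MoMF in DSS and CBDL+DSS. Genes above in all monocyte libraries numbered 3 to 5 against KC and 3 to 4 against MoMF in CBDL6w, 4 to 10 against MoMF in DSS, 2 to 3 in CBDL2w, and 1 to 2 against MoMF in CBDL+DSS. With the narrow genes alone, the ratio of shares of reads was 37.0, 30.3, 11.3, 6.64 and 2.65, against 10.0, 10.7, 6.501, 3.97 and 2.03 with all 33, for Sham6w over CBDL2w and over CBDL6w and DSS over CBDL+DSS in monocytes, DSS over CBDL+DSS in MoMF and Sham6w over CBDL6w in KC. Of 1211 values of 71 called changes under the alternatives, 978 kept the call, 233 lost it and 0 reversed. The causes were not tested. Too few reads kept 21 of 33 genes from the test in KC, 9 in MoMF and 3 in monocytes.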
